A study of Mus musculus with 8 samples.

Results

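The genes described here build fatty acids, join them into triglyceride, and store or release that triglyceride in lipid droplets. They were chosen by name, as 41 genes with a set role in these steps, and 34 of them had a probe that was detected (detection p at or under 0.05) in at least 1 of 8 arrays, among 14850 features tested and 9640 named genes. For each gene the probe with the highest mean over the 8 arrays was used. Acaca, Me1, Scd2, Cidea, Abhd5, Lipe and Cd36 were not measured under a name here. RNA of hepatocytes was compared between AAV-Cre mice, Gata4 fl/fl animals that received AAV8-Tbg-Cre, and AAV-GFP mice, Gata4 fl/fl animals that received AAV8-Tbg-GFP, with 4 arrays in each group. Both groups carried the floxed Gata4 alleles on a CD1 x 129S1/SvImJ strain background, were 2 to 3 months old, and had been given the virus by vein 2 weeks earlier. Tbg is a promoter that drives expression in hepatocytes, so Cre, which excises the floxed part of Gata4, was aimed at those cells, and GATA4 is a transcription factor that binds the sequence GATA. The cells were freed by collagenase perfusion and enriched on Percoll. Whether the samples of a group are separate mice is not stated in the labels, and a p-value here covers the spread among these arrays, which may be technical.

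The liver makes fatty acids from citrate that leaves the mitochondrion: ATP citrate lyase turns it into acetyl-CoA, acetyl-CoA carboxylase makes malonyl-CoA, and fatty acid synthase builds the chain. Elongases lengthen the chain, desaturases put in double bonds, and a series of acyltransferases and a phosphatase join fatty acids to glycerol. Triglyceride is then secreted on lipoproteins or kept in droplets coated by perilipins and CIDE proteins, from which lipases free fatty acids again. The pathway follows food intake, insulin and the daily clock, and several of its genes differ between the sexes in mouse liver.

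The promoter sequences of members with an unadjusted p under 0.05 are given first, because these members carry the differences described below and the factor deleted here binds DNA at GATA motifs. A promoter was found for 29 of the 34 measured members in a RefSeq table of build GRCm38.p6, and each sequence is the 250 bases before the start of the gene, on the gene's strand and 5′ to 3′. Capitals mark a CCAAT box, the motif that NF-Y binds. Elovl3, Scd1 and Fads1 had no entry.

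The promoters of Acacb (chr5:114165268-114165517, plus strand) and Fasn (chr11:120824548-120824797, minus strand), whose enzymes make malonyl-CoA and the fatty acid chain, read as follows.
Acacb: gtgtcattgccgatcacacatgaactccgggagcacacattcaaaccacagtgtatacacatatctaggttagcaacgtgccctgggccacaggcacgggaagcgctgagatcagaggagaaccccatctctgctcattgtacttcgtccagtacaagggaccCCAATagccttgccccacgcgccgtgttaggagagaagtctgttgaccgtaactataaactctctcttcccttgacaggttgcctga
Fasn: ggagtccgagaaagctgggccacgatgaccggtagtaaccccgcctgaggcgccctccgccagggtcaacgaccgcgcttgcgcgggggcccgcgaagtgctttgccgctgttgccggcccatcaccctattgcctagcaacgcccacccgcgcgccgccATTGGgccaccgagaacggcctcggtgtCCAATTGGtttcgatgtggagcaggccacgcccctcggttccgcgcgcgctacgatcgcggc

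The promoters of Cideb (chr14:55758425-55758674, minus strand) and Fitm1 (chr14:55575424-55575673, plus strand), whose proteins act on lipoproteins and droplets, read as follows.
Cideb: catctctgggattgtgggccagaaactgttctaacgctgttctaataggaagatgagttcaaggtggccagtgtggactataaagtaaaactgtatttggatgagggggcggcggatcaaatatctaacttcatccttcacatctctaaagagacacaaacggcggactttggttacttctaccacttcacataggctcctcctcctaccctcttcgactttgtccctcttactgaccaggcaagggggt
Fitm1: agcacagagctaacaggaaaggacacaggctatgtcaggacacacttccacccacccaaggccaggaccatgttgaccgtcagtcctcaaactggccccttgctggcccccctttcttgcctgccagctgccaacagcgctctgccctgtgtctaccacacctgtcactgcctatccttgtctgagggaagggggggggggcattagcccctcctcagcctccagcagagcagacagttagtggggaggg

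GATA motifs were searched as AGATAA, as AGATAG, as TGATAA and as TGATAG on both strands, and none lay in these 4 windows. Of 40 promoters of the 29 members (some genes have several starts) 5 held a GATA motif, which is 12.5%, against 26.5% of 32851 promoters of the same length. These 5 belonged to Elovl1, Gpam, Lpin2, Mlxipl and Plin2. The palindrome CACGTG (E-box), which ChREBP and clock factors can bind, lay in 10% of the members' promoters (Elovl5, Lpin2, Mgll and Mlxipl) and in 6.02% of all. The sterol element TCACNCCAC lay in 2.5% of the members' promoters, in Mlxipl alone, and in 1.05% of all. CCAAT lay in 40% of the members' promoters and in 33.8% of all, once in Acacb, 3 times in Fasn, where a pair of matches on opposite strands overlap, and in neither Cideb nor Fitm1. A match is a run of letters and not a measured site, and sequence outside these 250 bases was not searched.

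Values below are log2 of normalized intensity, and differences are AAV-Cre minus AAV-GFP, with SE from limma. Between 14788 and 16387 probes were detected in an array, the fewest in AAV-Cre 3 and AAV-Cre 4. The Gata4 probe read 6.28, 5.85, 5.72 and 5.84 in AAV-Cre 1 to 4, against 5.31, 5.37, 5.02 and 5.10 in AAV-GFP 1 to 4. It was detected in 1 AAV-Cre and 0 AAV-GFP arrays, and where it lies relative to the excised part is not stated, so it does not check the labels. Gata6, its paralog, differed by 0.07 ± 0.19. Of the hepatocyte markers 5 of 10 were measured, Alb between 9.10 and 9.69 in AAV-Cre and between 9.64 and 9.84 in AAV-GFP, and Hnf4a, a hepatocyte transcription factor, was detected in all 8 arrays (difference -0.07). Serpina1a differed by -0.47 and F10 by 0.10, and Tat was detected in 1 array. The Y-linked Uty and Xist split AAV-GFP. Uty read 7.11 to 7.56 in AAV-Cre, against 6.08 and 5.93 in AAV-GFP 1 and 4 and 7.09 and 7.51 in AAV-GFP 2 and 3. Kdm5d, also Y-linked, split both groups, at 8.34, 7.85, 5.96 and 5.37 in AAV-Cre 1 to 4, against 5.47, 7.75, 7.80 and 5.42 in AAV-GFP 1 to 4. Its AAV-Cre 3 and 4 values were as low as those of AAV-GFP 1 and 4, although Uty and Xist did not set AAV-Cre 3 and 4 apart. Xist, the RNA that coats the inactive X chromosome of female cells, read 13.33 in AAV-GFP 1 and 13.78 in AAV-GFP 4, and at most 5.33 in the other 6 arrays. The labels give no sex. AAV-GFP 1 also stood apart in clock genes: Dbp, a clock output factor, read 8.89 there, against 13.78 or more in each of the other 7 arrays. Most differences of lipid genes that rest on AAV-GFP 1 and 4 are therefore given with and without them.

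Over all 14850 features 1 was called at an adjusted p under 0.25 (0.00673%), a probe without a gene name that was lower in AAV-Cre. At an unadjusted p under 0.05 there were 1345 (9.06%), 741 higher in AAV-Cre (4.99%) and 604 lower (4.07%). The 4 AAV-Cre values did not overlap the 4 AAV-GFP values in 714 features (4.81%), with AAV-Cre above in 461 (3.1%) and below in 253 (1.7%).

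None of the 34 lipid genes was called at an adjusted p under 0.25. Their adjusted p-values lay between 0.535 and 0.957 (limma with Benjamini-Hochberg adjustment over all features). At an unadjusted p under 0.05 there were 7 of 34 (20.6%), of which 3 were higher in AAV-Cre (Elovl3, Fitm1 and Cideb) and 4 lower (Acacb, Fads1, Scd1 and Fasn). Fasn passed the detection filter only through AAV-GFP 1 and 4. Among the 30 members detected in all 8 arrays the count was 5, without Fasn and Fitm1, beside 9.87% of such features. The groups did not overlap in 3 of 34 (8.82%), with Elovl3 above in AAV-Cre and Acacb and Fads1 below. The median difference of the 34 was 0.02, beside 0.04 over all features, with 17 positive and 17 negative. Without AAV-GFP 1 and 4 the count at an unadjusted p under 0.05 was 3 (Acacb, Fads1 and Cidec), beside 5.89% of all features, and the median difference was -0.16. Cidec was counted there only once the AAV-GFP arrays that did not detect it were left out. With 1 array left out the count was 3 without AAV-Cre 4 (beside 5.14% of all features), 4 without AAV-Cre 3 (5.72%), 4 without AAV-GFP 1 (7.85%), and 5 to 8 without any other, where the share of all features lay between 6.89% and 15%; Acacb, Fads1 and Fitm1 were counted each time. By step, all 4 measured synthesis genes and all 3 desaturases had negative differences, with medians of -0.73 and -0.44. Fasn is 1 of these 4, and its sign is no support, because it passed the filter only through AAV-GFP arrays. All 6 esterification genes had positive differences, with a median of 0.25, beside 56.6% of all features with a positive difference. Without AAV-GFP 1 and 4 the signs of synthesis and desaturation genes were the same, with medians of -0.29 and -0.43, though no array left there detected Fasn. Of the esterification genes 4 of 6 were then positive, with a median of 0.092. In the same arrays 2 of 8 droplet genes (5 of 8 in all arrays) and 0 of 4 lipolysis genes (2 of 4 in all arrays) had positive differences, beside 55.6% of all features. The droplet count includes Cidec, whose remaining AAV-GFP arrays are those by which it passed the filter. The lipolysis count includes Pnpla3 (-0.0025), which no remaining array detected, so neither sign is support.

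**Figure D1:**
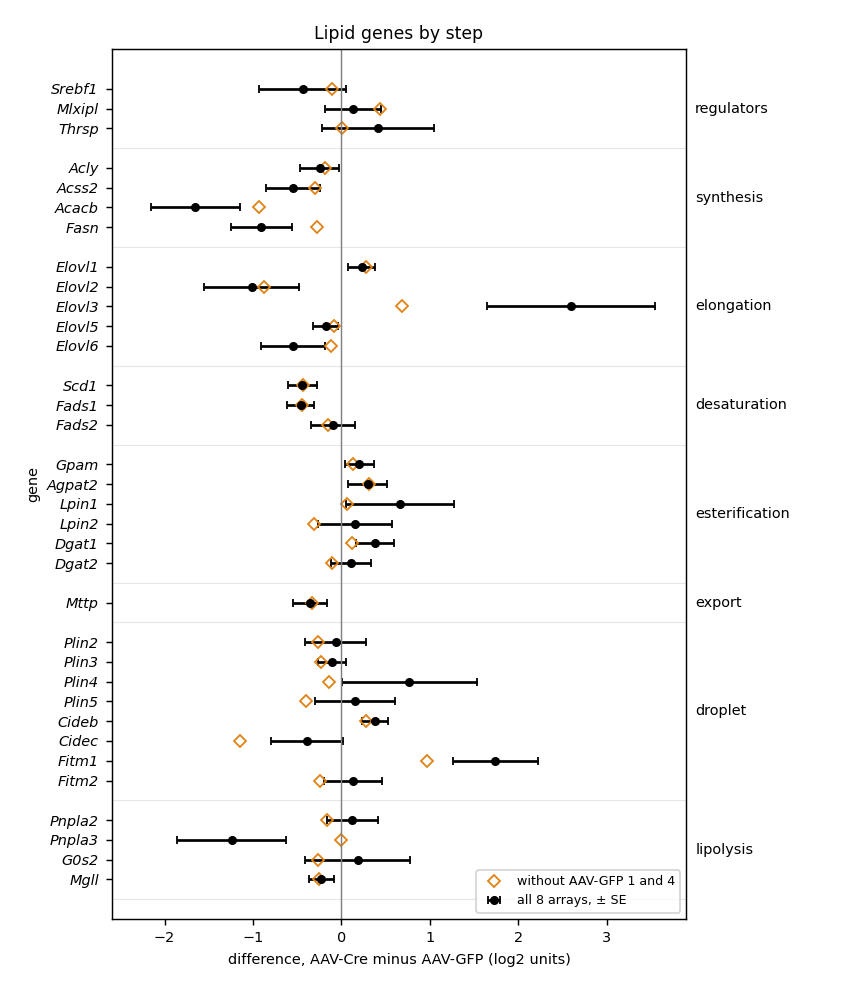
The x axis is the difference in log2 units, AAV-Cre minus AAV-GFP, for each of the 34 measured genes by step. Black points with bars are all 8 arrays with SE, and open diamonds leave out AAV-GFP 1 and 4. Elovl3 moves from 2.60 to 0.69 and Acacb from -1.66 to -0.93 when these arrays are left out, and Cidec from -0.39 to -1.14.

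The regulators were SREBP-1 (Srebf1) and ChREBP (Mlxipl), transcription factors that turn on fatty acid synthesis in response to insulin and to sugar, and Spot 14 (Thrsp), a nuclear protein made in lipogenic tissue. Srebf1 read 11.40, 9.65, 9.93 and 10.81 in AAV-Cre, against 10.97, 9.68, 11.43 and 11.46 in AAV-GFP. Its difference of -0.44 ± 0.49 was smaller than the spread within either group, and was -0.11 without AAV-GFP 1 and 4. Mlxipl differed by 0.13 ± 0.31, and a second detected probe of the gene differed by -0.13. Thrsp read 13.79, 14.36, 14.30 and 13.19 in AAV-Cre, against 11.51, 13.56, 14.26 and 14.65 in AAV-GFP. AAV-GFP 1 alone set the low end of Thrsp, and the difference of 0.41 ± 0.63 came to 0.00 without AAV-GFP 1 and 4.

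Among the synthesis genes Acacb, the acetyl-CoA carboxylase at the mitochondrial surface whose malonyl-CoA restrains fatty acid oxidation, had the largest negative difference of the 34. It read 8.63, 9.54, 9.38 and 9.10 in AAV-Cre, against 10.63, 10.19, 9.998 and 12.45 in AAV-GFP. Every AAV-Cre value lay below every AAV-GFP value, and AAV-GFP 4 was the highest by far. The means were 9.16 ± 0.40 in AAV-Cre and 10.82 ± 1.12 in AAV-GFP (SD, n = 4 each), a difference of -1.66 ± 0.50, or 0.317 times the AAV-GFP level (unadjusted p = 0.00974 and adjusted p = 0.535, limma). Without AAV-GFP 1 and 4 the groups were still separate, and the difference was -0.93.

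Fasn, fatty acid synthase, was dim on this probe. It read 5.75, 5.96, 5.22 and 5.64 in AAV-Cre, in 0 of 4 arrays above background, against 7.21, 6.05, 5.79 and 7.15 in AAV-GFP, where AAV-GFP 1 and 4 were detected. Where no array of a group detected a probe, its level there is a bound, set per array at the higher of the lowest detected signal and the probe's own. On that footing Fasn was at least 1.24-fold higher in AAV-GFP (fitted difference -0.91 ± 0.35, unadjusted p = 0.0288, adjusted p = 0.535, limma). Fasn passed the detection filter only through AAV-GFP 1 and 4, so this p is no independent support for a difference. Without AAV-GFP 1 and 4 the fitted difference was -0.28, and no bound above 1-fold could be set. Acss2, which makes acetyl-CoA from acetate, read between 13.32 and 13.64 in AAV-Cre, against 13.51, 13.97, 13.55 and 14.99 in AAV-GFP. Its difference of -0.55 ± 0.31 was largely that of AAV-GFP 4, and was -0.30 without AAV-GFP 1 and 4. Acly, ATP citrate lyase, differed by -0.25 ± 0.22, and the groups overlapped.

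**Figure D2:**
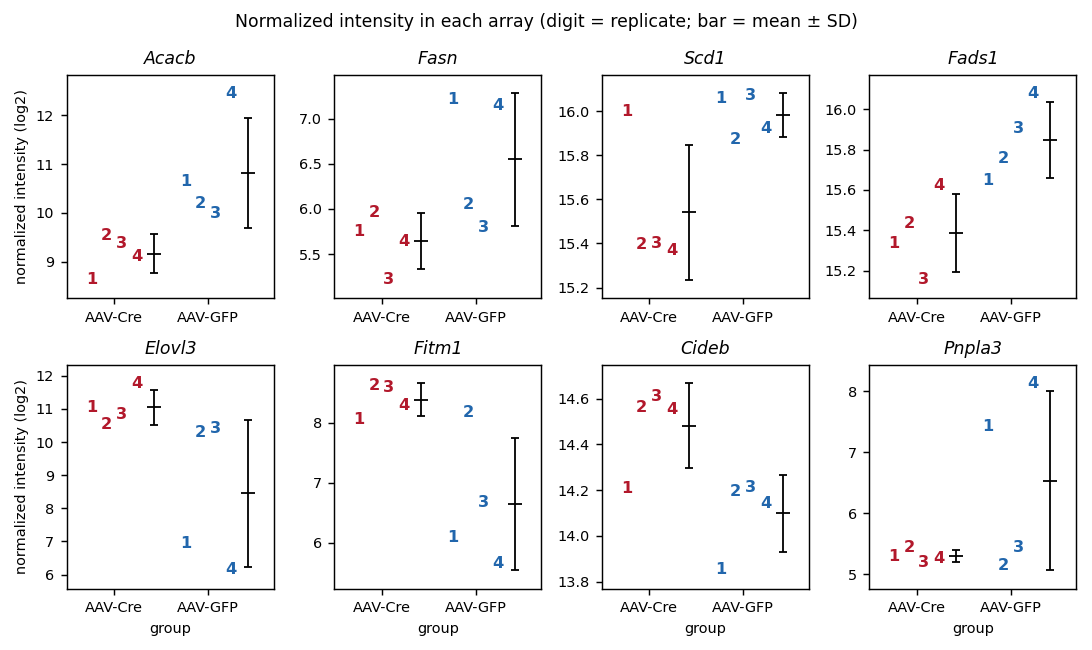
Each panel plots one gene, with normalized intensity in log2 on the y axis and AAV-Cre left of AAV-GFP on the x axis; digits are replicate numbers and bars are mean ± SD of 4 arrays. In Elovl3 and Pnpla3 replicates 1 and 4 of AAV-GFP stand apart from replicates 2 and 3, whereas in Fads1 all 4 AAV-GFP values lie above all 4 AAV-Cre values.

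Among the elongases Elovl3, which makes very long saturated and monounsaturated chains and is higher in male than in female mouse liver, had the largest positive difference. It read 11.06, 10.54, 10.82 and 11.77 in AAV-Cre, against 6.94, 10.30, 10.42 and 6.14 in AAV-GFP. The low values were those of the arrays with Xist. The difference was 2.60 ± 0.95 (unadjusted p = 0.0241, adjusted p = 0.535, limma), or 6.05 times the AAV-GFP level, and without AAV-GFP 1 and 4 it was 0.69, with every AAV-Cre value still above both that remained. Elovl2, which lengthens polyunsaturated chains, split the other group: it read 11.95, 11.53, 9.76 and 9.61 in AAV-Cre, against 11.86, 11.13, 12.05 and 11.88 in AAV-GFP. AAV-Cre 3 and 4 were low and AAV-Cre 1 and 2 lay among the AAV-GFP values. Its difference of -1.02 ± 0.54 was 0.01 without AAV-Cre 3 and 4, the arrays with the fewest detected probes, whose part in the result was not tested. Elovl6, which takes palmitate to stearate, differed by -0.55 ± 0.36, with 12.66 in AAV-GFP 4 and at most 11.43 in every other array. Without AAV-GFP 1 and 4 Elovl6 differed by -0.12. Elovl5 (-0.18 ± 0.14) and Elovl1 (0.23 ± 0.15) differed by little, and the groups overlapped in both.

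Of 3 measured desaturases 2 had an unadjusted p under 0.05. Fads1, the delta-5 desaturase of polyunsaturated fatty acids, read 15.34, 15.43, 15.16 and 15.62 in AAV-Cre, against 15.65, 15.76, 15.91 and 16.08 in AAV-GFP. The groups did not overlap, by a gap between AAV-Cre 4 and AAV-GFP 1 that was small beside the spread. The difference was -0.46 ± 0.15, or 0.726 times (unadjusted p = 0.0145, adjusted p = 0.535, limma), and -0.45 without AAV-GFP 1 and 4. A second detected probe of Fads1, dim at 5.27 to 6.19 in AAV-GFP, differed by -0.07 ± 0.23. With 75th percentile scaling, and with the mean of all detected probes, Fads1 had no unadjusted p under 0.05. Scd1, stearoyl-CoA desaturase, which makes oleate, read 15.998, 15.40, 15.40 and 15.37 in AAV-Cre, against 16.06, 15.87, 16.07 and 15.92 in AAV-GFP. AAV-Cre 1 lay among the AAV-GFP values, and the other AAV-Cre arrays lay below all of them. The difference was -0.44 ± 0.17, or 0.737 times (unadjusted p = 0.0282, adjusted p = 0.535, limma), and -0.43 without AAV-GFP 1 and 4. Fads2, the delta-6 desaturase, differed by -0.10 ± 0.25.

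These probes were among the brightest on the arrays. In deposited intensity Scd1 stood between 50.4% and 92.9% of the array's highest probe in AAV-Cre, and between 86.1% and 98.0% in AAV-GFP. Fads1 stood between 47.4% and 61.8% in AAV-Cre, and between 79.8% and 98.5% in AAV-GFP, and Elovl5 between 60.7% and 74.0% in AAV-Cre and between 74.1% and 96.3% in AAV-GFP. A signal near the top of the range has little room to read higher, which limits what the log2 differences of these probes can show, and also how far their AAV-GFP values can differ from one another, so the like differences of Scd1 and Fads1 without AAV-GFP 1 and 4 are no sign of stability. Without AAV-Cre 3 and 4 the difference of Scd1 was -0.29.

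**Figure D3:**
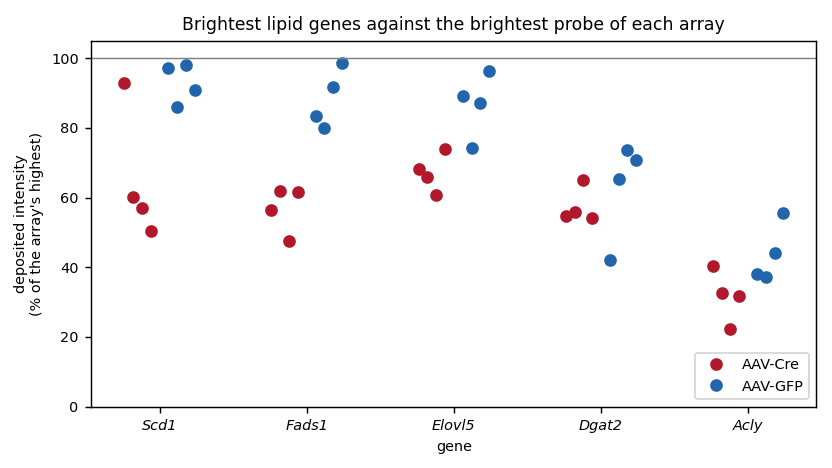
The y axis is deposited intensity as a percentage of the brightest probe of the same array, for 5 bright lipid genes on the x axis, with 1 point per array and AAV-Cre (red) left of AAV-GFP (blue). Scd1 reaches 98.0% and Fads1 98.5% in AAV-GFP, whereas Acly stays at or under 55.7%.

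Esterification starts with the mitochondrial acyltransferase GPAT1 (Gpam), goes on through AGPAT2, the lipin phosphatases and ends with the diacylglycerol acyltransferases DGAT1 and DGAT2. On the probes used none of the 6 genes had an unadjusted p under 0.05 with all arrays, and Agpat2 had one without AAV-GFP 1. Differences were 0.20 ± 0.16 for Gpam, 0.30 ± 0.22 for Agpat2, 0.66 ± 0.61 for Lpin1, 0.16 ± 0.42 for Lpin2, 0.37 ± 0.21 for Dgat1 and 0.11 ± 0.23 for Dgat2. A second detected probe of Agpat2 differed by 0.45 ± 0.18, at 12.14 to 12.28 in AAV-Cre and 11.42 to 12.13 in AAV-GFP, without overlap. Other detected probes differed by 0.29 for Lpin1 and by -0.32 and 0.02 for Lpin2. The positive sign of several rested on 1 array: Lpin1 read 12.60, 13.39, 13.61 and 13.74 in AAV-Cre, against 10.64, 13.27, 13.26 and 13.52 in AAV-GFP, and its difference was 0.07 without AAV-GFP 1 and 4. Lpin2 (10.98 in AAV-GFP 1) and Dgat2 (14.62 in AAV-GFP 1) were likewise lowest in that array, and their differences were -0.31 and -0.11 without AAV-GFP 1 and 4. The difference of Dgat1 was 0.12 without AAV-GFP 1 and 4. Mttp, which loads triglyceride on apolipoprotein B for export, read 11.41, 12.27, 12.06 and 11.88 in AAV-Cre, against 12.15, 12.32, 12.15 and 12.43 in AAV-GFP. The groups overlapped through AAV-Cre 2, and the difference was -0.35 ± 0.19.

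Of the 8 measured droplet genes Fitm1 had the lowest p of all 34 members. FIT1 and its relative FIT2 sit in the endoplasmic reticulum and bind triglyceride as droplets form, and Fitm1 is best known from muscle. Fitm1 read 8.06, 8.63, 8.58 and 8.28 in AAV-Cre, against 6.09, 8.18, 6.67 and 5.66 in AAV-GFP. AAV-GFP 2 lay inside the AAV-Cre range, and the other AAV-GFP arrays lay well below it. The probe was dim, between 0.44% and 0.96% of the array's highest, and was detected in 4 AAV-Cre and 3 AAV-GFP arrays. AAV-GFP 4 lay under the lowest detected signal of its array (6.08), and AAV-GFP 1 lay at that of its own (6.09). The ratio below therefore rests in part on values at background. The difference was 1.74 ± 0.48, or 3.33 times (unadjusted p = 0.0058, adjusted p = 0.535, limma), and it was 0.96 without AAV-GFP 1 and 4. Without AAV-GFP 2 alone the adjusted p was 0.0955, the one case among the alternatives in which a lipid gene was called. The study lists Fitm1 among genes that rose on Gata4 excision and lay near a site bound by GATA4. Its fold change there, from other processing, is smaller than the ratio given here. Fitm2 differed by 0.13 ± 0.32, and a second probe of it by -0.26.

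Cideb, the CIDE protein of hepatocytes that takes part in loading very low density lipoprotein, read 14.21, 14.56, 14.61 and 14.55 in AAV-Cre, against 13.85, 14.19, 14.21 and 14.14 in AAV-GFP. AAV-Cre 1 and AAV-GFP 3 met at 14.21, and the other AAV-Cre values lay above all of AAV-GFP. The difference was 0.38 ± 0.15, or 1.30 times (unadjusted p = 0.0281, adjusted p = 0.535, limma), and 0.28 without AAV-GFP 1 and 4. Cidec, its relative that enlarges droplets and is high in fat tissue and fatty liver, was detected in 0 AAV-Cre arrays and in AAV-GFP 2 and 3. It read 5.64, 5.95, 6.18 and 5.35 in AAV-Cre, against 5.29, 6.93, 6.91 and 5.55 in AAV-GFP, with a fitted difference of -0.39 ± 0.40, and no bound above 1-fold could be set. Without AAV-GFP 1 and 4, the arrays that did not detect it, the fitted difference was -1.14 and the bound was 1.60-fold. AAV-GFP then holds only the arrays by which Cidec passed the detection filter, so these values are no test of a difference.

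The perilipins coat the droplet. Plin2, the main perilipin of the hepatocyte droplet, read 11.59, 12.81, 12.43 and 11.25 in AAV-Cre, against 12.06, 12.50, 12.07 and 11.71 in AAV-GFP. The AAV-Cre values spanned the AAV-GFP values, with a difference of -0.07 ± 0.34. Plin3 differed by -0.11 ± 0.16, and Plin5, which ties droplets to mitochondria, by 0.15 ± 0.45. Plin4 read 9.94, 10.03, 11.39 and 11.02 in AAV-Cre, against 7.43, 10.12, 11.34 and 10.42 in AAV-GFP. AAV-GFP 1 alone was low, and the difference of 0.77 ± 0.76 was -0.14 without AAV-GFP 1 and 4.

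Among the lipolysis genes Pnpla2 encodes ATGL, which takes the first fatty acid off triglyceride, G0s2 its inhibitor, Mgll the monoglyceride lipase that ends the series, and Pnpla3 a droplet protein that is switched on by SREBP-1 on feeding. Pnpla2 (0.12 ± 0.29), G0s2 (0.18 ± 0.60) and Mgll (-0.23 ± 0.14) had groups that overlapped. G0s2 had the widest spread within AAV-Cre of these, at 11.47, 12.81, 13.95 and 11.20, against 11.30, 12.69, 12.57 and 12.14 in AAV-GFP. Pnpla3 read 5.29, 5.43, 5.20 and 5.26 in AAV-Cre, with 0 arrays detected, against 7.41, 5.15, 5.44 and 8.13 in AAV-GFP, where AAV-GFP 1 and 4 were detected. It was at least 1.22-fold higher in AAV-GFP (fitted difference -1.24 ± 0.62, unadjusted p = 0.0758, adjusted p = 0.535, limma). Pnpla3 too passed the detection filter only through AAV-GFP 1 and 4. Without AAV-GFP 1 and 4 the fitted difference was 0.00, and no bound above 1-fold could be set.

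**Figure D4:**
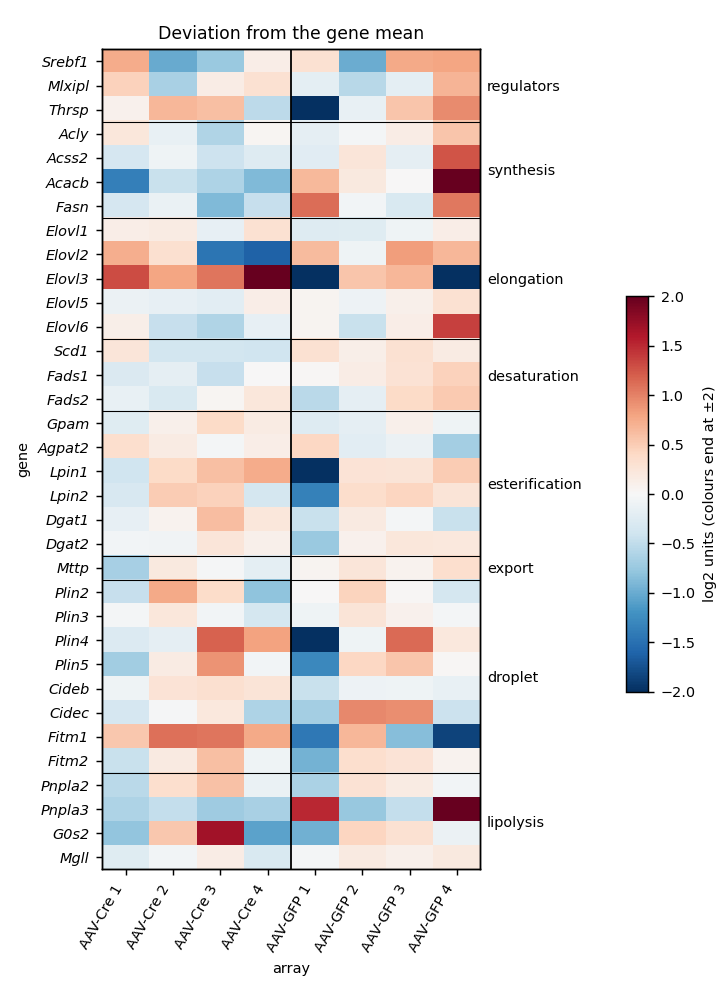
Rows are the 34 measured genes by step and columns the 8 arrays, AAV-Cre left of AAV-GFP. Colour is the deviation from the gene's mean over 8 arrays in log2 units, and colours end at ±2. AAV-GFP 1 is the lowest array of 13 genes, among them Lpin1, Plin4 and Thrsp, and AAV-GFP 4 the highest of 13, among them Acacb, Acss2 and Elovl6.

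Many members had their extreme values in AAV-GFP 1 or 4. AAV-GFP 1 was the lowest of the 8 arrays for 13 of the 34 genes (38.2%), beside 14.98% of all features, and these were Thrsp, Elovl1, Fads2, Gpam, Lpin1, Lpin2, Dgat2, Plin4, Plin5, Cideb, Cidec, Fitm2 and Pnpla2. AAV-GFP 4 was the highest for 13 of the 34 (38.2%), beside 12.2% of all features, among them the regulators and Acly, Acss2 and Acacb. The median range over 4 arrays was 0.81 in AAV-Cre and 1.16 in AAV-GFP, and AAV-GFP had the wider range in 20 of 34 genes (58.8%), beside 44.7% of all features. By step the median deviation from the gene mean was 1.16 for synthesis in AAV-GFP 4 and -0.82 for droplet genes in AAV-GFP 1.

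Of 11 measured clock genes 1 had an unadjusted p under 0.05. Nr1d1, the clock repressor REV-ERB alpha, read 9.77, 9.26, 8.91 and 10.21 in AAV-Cre, against 7.93, 8.44, 7.70 and 9.33 in AAV-GFP. Only AAV-GFP 4 lay within the AAV-Cre range, and the difference was 1.19 ± 0.39 (unadjusted p = 0.0151, limma), so this gene did not set AAV-GFP 1 alone apart. Nr1d2 (-0.78 ± 0.47) and Clock (0.22 ± 0.25) had groups that overlapped. Other genes of the lists did set single control arrays apart, and Dbp, Arntl, Cyp4a12a and Kdm5d were chosen after their values were seen. Ciart, a repressor with a daily rhythm, read 11.44 to 12.24 in AAV-Cre, against 6.51 in AAV-GFP 1 and 11.53 to 12.52 in the other AAV-GFP arrays. Arntl, which peaks opposite to Dbp, read 9.93 in AAV-GFP 1 and at most 8.23 in every other array. Of 11 measured female-biased genes 1 was positive and 10 negative, and of 10 measured male-biased genes all were positive, beside 56.6% of all features. These counts include AAV-GFP 1 and 4 and were not repeated without them. The female-biased A1bg read 5.05 to 5.67 in AAV-Cre, against 14.36, 5.24, 6.55 and 16.07 in AAV-GFP, and of the others named Cyp17a1 differed by -1.55, Tox by -1.41 and Fmo2 by 0.53. Of the male-biased genes Mup20 differed by 1.01, Cyp7b1 by 0.71, Bcl6 by 1.90 and Cyp2d9 by 0.92. Cyp4a12a, a male-biased enzyme, read 15.83 to 15.98 in AAV-Cre, against 10.73 in AAV-GFP 1, 6.35 in AAV-GFP 4 and 16.03 in each of AAV-GFP 2 and 3. The part of phase and sex in the lipid differences was not tested. Of 11 measured feeding and fasting genes 0 had an unadjusted p under 0.05, and 5 were positive and 6 negative. The 4 of smallest p were Igfbp1 (-0.57), the glucose-making enzyme Pck1 (-0.61), Angptl4 (0.28) and Ppargc1a (0.33), genes known to rise on fasting.

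**Figure D5:**
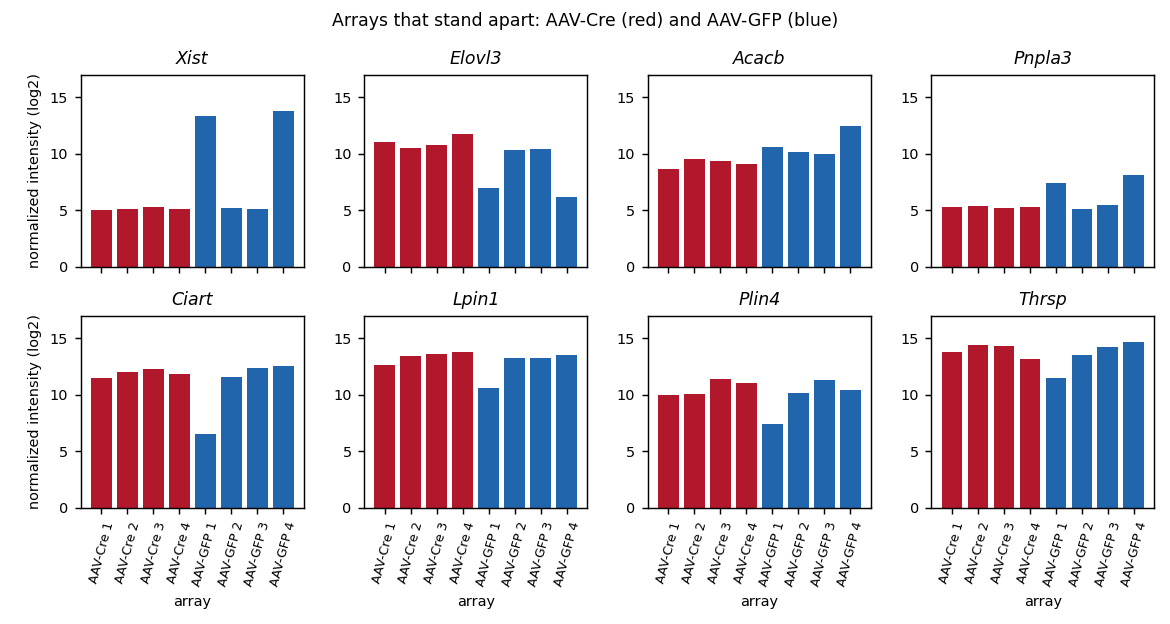
Bars are the normalized intensity in log2 of 8 genes in each array on the x axis, AAV-Cre (red) left of AAV-GFP (blue). Xist is high in AAV-GFP 1 and 4 (13.33 and 13.78), where Elovl3 is low and Pnpla3 is detected, and Ciart is low in AAV-GFP 1 alone (6.51), where Lpin1, Plin4 and Thrsp are also lowest.

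Around the members, 6 lists of partner genes held 115 genes, of which 83 were measured. At an unadjusted p under 0.05 there were 13 of 83 (15.7%), 5 higher in AAV-Cre and 8 lower, beside 9.06% of all features, and 0 were called at an adjusted p under 0.25. Their median difference was -0.04.

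In the supply of carbon and NADPH 2 of 9 measured genes were higher at that p and 0 lower. Slc25a10, the mitochondrial dicarboxylate carrier, read 12.01, 12.02, 12.37 and 12.17 in AAV-Cre, against 11.42, 11.81, 11.37 and 11.35 in AAV-GFP. The groups did not overlap, and the difference of 0.66 ± 0.15 (unadjusted p = 0.0021, limma) was 0.55 without AAV-GFP 1 and 4. Pdha1, a subunit of pyruvate dehydrogenase, differed by 0.32 ± 0.14, and Taldo1 by 0.24 ± 0.13, both without overlap. The next named were Slc2a2 (-0.31), Idh1 (-0.14) and Slc25a1 (-0.13). In lipogenic control 1 of 19 was lower, Scap, which escorts SREBP to the Golgi (-0.35 ± 0.14, no overlap, and -0.18 without AAV-GFP 1 and 4), and 0 were higher. Rxra (0.25), Usf2 (0.37), Prkag1 (0.21) and Nr1h3 (-0.34) were named by their place in the list, and Usf1 was detected in 1 array. Of 12 chain building partners 2 were lower, Hacd3, the dehydratase of the elongation cycle (-0.39 ± 0.15), and Acbd3 (-0.48 ± 0.19), and 0 higher. Cyb5a (-0.47), Acsm5 (0.13) and Fads6 (0.16) were named next, and Scd4 was detected in 2 arrays.

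Of 17 activation and esterification partners 2 were lower and 0 higher. Acsl5, which activates fatty acids to acyl-CoA, read 15.58, 15.58, 15.64 and 15.72 in AAV-Cre, against 16.03, 15.94, 15.86 and 15.96 in AAV-GFP. The groups did not overlap, with a difference of -0.32 ± 0.11 (unadjusted p = 0.018, limma), and its probe stood at 66.7% to 67.3% of the array's highest in AAV-Cre and at 89.4% to 96.4% in AAV-GFP, so the limit given for Scd1 holds here too. Plpp2, a lipid phosphatase, differed by -0.62 ± 0.21, and by -0.36 without AAV-GFP 1 and 4. Agpat3 (-0.83, with 8.73 and 8.57 in AAV-Cre 3 and 4 alone), Gpat4 (0.40), Lpin3 (0.33) and Lpcat3 (0.15) were named next. Of 17 droplet and secretion partners 1 was higher, the droplet protein Hsd17b11 (0.45 ± 0.16, no overlap), and 2 were lower. Tm6sf2, which takes part in filling lipoproteins with lipid, read 10.25, 10.14, 10.18 and 10.43 in AAV-Cre, against 11.39, 10.53, 10.84 and 11.83 in AAV-GFP. Its groups did not overlap, and the difference of -0.90 ± 0.27 (unadjusted p = 0.0085, limma) was -0.43 without AAV-GFP 1 and 4. Aadac, a lipase of the endoplasmic reticulum, differed by -1.53 ± 0.49 and was lowest in AAV-Cre 3 and 4, at 5.71 and 5.18, without which the difference was -0.65. It was detected in 2 of 4 AAV-Cre arrays. Those 2 low values lay under the lowest detected signals of their arrays (6.39 and 6.33), so the difference rests in part on background. Lpl (-1.24 ± 0.57), Pnpla7 (0.25) and Apob (0.21) were named next.

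Of 9 uptake and carriage partners 2 were higher and 1 lower. Slc27a4, the fatty acid transporter FATP4, read 7.41, 7.61, 7.82 and 7.83 in AAV-Cre, against 7.11, 7.36, 7.03 and 7.02 in AAV-GFP. The groups did not overlap, with a difference of 0.54 ± 0.15 (unadjusted p = 0.0055, limma). Dbi, the acyl-CoA binding protein, was lower (-0.40 ± 0.14, no overlap, and -0.24 without AAV-GFP 1 and 4), and Vldlr, a lipoprotein receptor, differed by 1.51 ± 0.64 with groups that overlapped. Gpihbp1 (0.41) and Lrp1 (-0.63) were named next, and Fabp5 was detected in 3 arrays.

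Markers of other liver cells mostly had positive differences, as did 56.6% of all features, of which 9.06% had an unadjusted p under 0.05 in either direction. All 9 measured sinusoidal endothelial markers of 10 had positive differences, 3 of them with an unadjusted p under 0.05, and their summed normalized intensity was 6433 to 9320 in AAV-Cre and 4296 to 8765 in AAV-GFP. These included Plvap (0.87), Stab1 (0.91), Stab2 (1.03), Pecam1 (0.60) and Cdh5 (0.40). Of the 9, 3 were not detected in every array, among them Cdh5 (2 AAV-Cre arrays and 1 AAV-GFP array) and Kdr (4 and 1). All 8 measured Kupffer cell markers of 10 had positive differences, 4 with such a p, with sums of 1802 to 2649 in AAV-Cre and 1095 to 1903 in AAV-GFP. Of these 8, 5 were not detected in every array. Marco was detected in 1 AAV-Cre and 0 AAV-GFP arrays, so its sign is no support. C1qa was detected in 3 AAV-Cre arrays and 1 AAV-GFP array, and Adgre1 in 2 of each. Those named were C1qb (1.26), Csf1r (0.49), Vsig4 (0.60) and C1qc (0.75). Stellate markers (5 of 10 measured) summed to 6074 to 6990 in AAV-Cre and 3701 to 8081 in AAV-GFP, with Dcn at 0.50 and Acta2, Lrat and Col3a1 near background. Of 8 cholangiocyte markers 1 was measured, Sox9, at 1.19, and of 10 adipocyte markers 2, Car3 at 0.87 and Pparg at 0.09. Adiponectin (Adipoq) and the cholangiocyte keratin Krt19 were not measured under a name here. The part of these cells in the lipid differences was not tested. In bulk RNA, fewer cells of a type and less RNA per cell cannot be told apart.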

How the data were processed

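Each hepatocyte RNA sample was amplified, biotin-labelled and put on 1 Illumina MouseWG-6 v2 bead array. Signals were exported by the authors with GenomeStudio, of unstated version. The deposited table holds the signal as linear intensity, not normalized, for 45281 probes, and the deposited detection p-value sets each probe against the negative control beads. A second deposited table, of 16820 probes, holds intensity that the authors had quantile-normalized. Gene names came from the platform annotation of these probes, 14408 of which had 1 symbol, so 5210 detected probes stayed unnamed.

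The function neqc (limma 3.58.1, R 4.3.3) corrected background by normexp from the detection p-values, added an offset of 16, applied quantile normalization and took log2. For Fasn, which was dim, and Elovl3, which was dim in AAV-GFP 1 and 4, a larger offset shrank the difference and background correction enlarged it. Fasn differed by -0.91 in the main fit, by -0.63 with an offset of 50 and by -0.27 without background correction. Elovl3 differed by 2.60, 2.37 and 1.65 in the same order. The sizes given for dim probes thus depend on these settings and are not lower limits. The 19618 probes with a detection p at or under 0.05 in at least 1 of 8 arrays were kept. A limma linear model of group alone (lmFit, eBayes) was fitted to 14850 features, p-values were adjusted over all of them (Benjamini-Hochberg), and calls were made at an adjusted p under 0.25, as the study's methods name that threshold for SAM, which was not run here. The fit was tested on simulated data. Arrays give no read depth, so their number limits the precision, and the median SE of a log2 difference was 0.201.

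The members and lists were chosen with earlier results of these data known. Every measured member was named, with the targeted gene, up to 3 genes of smallest unadjusted p in each direction of each pathway list, up to 4 of each other list, and set sex and cell type markers. The deviations of same-numbered samples correlated weakly, between 0.02 and 0.19, which does not decide whether the samples were paired. Of the 34 measured members 12 had more than 1 detected probe, and Elovl1, Fitm2, Lpin2, Mgll and Mlxipl had 1 of opposite sign. Alternatives varied background correction, scaling, the table used, the detection filter, the probe taken per gene, array weights, a replicate block and the set of arrays. Promoters were taken from RefSeq (GRCm38.p6). Figures were drawn with matplotlib 3.10.9.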

Additional observations from a re-analysis of the deposited data

Results flagged for a closer look

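The highest or lowest array of a group of 4 stood far from the others, by a gap of most of the group's range, in 5 of 68 groups examined (34 genes in AAV-Cre and in AAV-GFP), or 7.35%. Chance alone flags about 1 in 20 such groups. In AAV-Cre these were Scd1 in replicate 1, at 15.998 with the other arrays at 15.37 to 15.40, and Cideb in replicate 1, at 14.21 with the others at 14.55 to 14.61. In AAV-GFP these were 3 esterification genes in replicate 1, Lpin1 at 10.64, Lpin2 at 10.98 and Dgat2 at 14.62.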

How the results depend on the processing

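Under 19 alternatives to the processing, each computed for the members and the partner genes named by the rule, the direction held for 20 of 34 members and 25 of 36 partners in every alternative that gave a value. Acacb, Fasn, Scd1, Fads1, Elovl3, Fitm1 and Cideb were among the members that kept theirs. For Fasn, which passed the detection filter only through AAV-GFP 1 and 4, the kept sign is no support. The number of all features called (1) was 2 with an offset of 50, without background correction, with 75th percentile scaling and with array weights, 3 with the authors' value table, 0 with detection in all 8 arrays, and 1 to 5 when 1 array was left out (5 without AAV-GFP 2, 3 without AAV-Cre 1 and 2 without AAV-Cre 2). The number of members called (0) was 0 to 1 when 1 array was left out, and 0 otherwise. The number of members at an unadjusted p under 0.05 (7) was 4 with 75th percentile scaling (beside 10.1% of all features), 3 without AAV-GFP 1 and 4 (5.89%), 3 without AAV-Cre 3 and 4 (4.05%), and 3 to 8 when 1 array was left out (5.14% to 15%, beside 9.06% with all arrays). It was 3 without AAV-Cre 4, and 4 without AAV-Cre 3 and without AAV-GFP 1. The 4 with 75th percentile scaling were Fitm1, Acacb, Elovl3 and Fasn, so Fads1, Scd1 and Cideb were lost. With the mean of all detected probes the count was 6, without Fads1. With the replicate number as a block 7 members had such a p and 0 were called. Same-numbered samples deviated with correlations of 0.19, 0.06, 0.02 and 0.12. Such weak correlations cannot decide whether the numbers pair the samples, and the main fit took no pairing.

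Without AAV-GFP 1 and 4 the sign turned for Lpin2 (-0.31), Dgat2 (-0.11), Plin4 (-0.14), Plin5 (-0.41), Fitm2 (-0.24), Pnpla2 (-0.16), G0s2 (-0.27), Fads6 (-0.089), Gpat4 (-0.092) and Fabp5 (0.36). Without AAV-Cre 3 and 4 it turned for Mlxipl (-0.029), Elovl2 (0.014), Dgat2 (-0.011), Plin2 (0.11), Plin3 (0.042), Plin5 (-0.19), Fitm2 (-0.064), Pnpla2 (-0.039), G0s2 (-0.034), Usf2 (-0.026), Nr1h3 (0.026), Scd4 (-0.13), Lpcat3 (-0.028), Agpat3 (0.075) and Lrp1 (0.017). With the mean of all detected probes it turned for Mlxipl (-0.00075), Lpin2 (-0.050), Usf2 (-0.0043), Slc2a2 (0.075), Slc25a1 (0.059) and Lpcat3 (-0.44). When 1 array was left out the difference ranged from -0.12 to 0.20 for Dgat2, -0.30 to 0.061 for Fads2, -0.10 to 0.35 for Fads6, -0.16 to 0.30 for Fitm2, -0.35 to 0.57 for G0s2, -0.016 to 0.94 for Lpin1, -0.27 to 0.32 for Lpin2, -0.034 to 0.38 for Mlxipl, -0.33 to 0.19 for Plin2, -0.033 to 1.27 for Plin4, -0.25 to 0.41 for Plin5, -0.066 to 0.33 for Pnpla2 and -0.25 to 0.80 for Thrsp. The cause was not tested.

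Scaling to the 75th percentile moved the median difference of all features to 0.12, from 0.04. Fasn, Cidec and Pnpla3 were near background, as were Fitm1 in AAV-GFP 1 and 4 and Aadac in AAV-Cre 3 and 4, and Scd1, Fads1, Elovl5 and Acsl5 were near the top of the range. This limits what the differences of these genes show.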
